A study of Mus musculus with 2 samples.

Results

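The windows described here are the 2461 autosomal windows of 100 bp in which the most methylated DNA was captured, of 2460832 listed on chromosomes 1 to 19 and 2537435 in the whole table. They were chosen by the sum of the wildtype and the knockout RPKM, the reads of a window scaled for its length and for the reads of the library. A window was taken where that sum was in the top 0.1% of the autosomal windows, above 40.9. The last window inside had a sum of 40.94 and the first outside one of 40.92, so the limit cuts a continuous range. The sum is therefore given only as a description. The ratio between the libraries, the CpG content, the position and the neighbouring windows were not used to choose the windows, although a window very high in 1 library alone can pass on that library.

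Testis DNA of C57BL/6 mice had been sheared to fragments of 200 to 400 bp, captured on magnetic beads that carry the part of mouse MBD2 which binds methylated CpGs, eluted in 2000 mM NaCl and sequenced. The 2 libraries were a wildtype testis and a testis of a Kaiso KO male, labelled as a generation 3 offspring and as sterile. Kaiso, the product of Zbtb33, is a transcription repressor whose zinc fingers recognise methylated CpGs. The description of the knockout sample also calls its testis wildtype, so the groups rest on the genotype label. The libraries held 87710791 wildtype and 98549116 knockout reads. The 16 listed windows of Zbtb33, which check the label only weakly because the sources used here do not say which part was deleted, held 303 wildtype and 83 knockout counts. With 1 library per genotype no difference below has a replicate check, no test was made, and the intervals, exact Clopper-Pearson intervals at 95%, cover counting error only.

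Capture by an MBD domain draws DNA in proportion to its methylated CpGs, so a window gathers more reads where CpGs are many and methylated. Mammalian genomes hold tandem arrays and multicopy gene families, many of them methylated, among them satellite DNA near the centromeres, ribosomal RNA genes and clusters of Dux, zinc finger and vomeronasal genes. An assembly holds only some copies of such sequences, and reads of the other copies can then be placed on those it has. An uncaptured DNA library was not used here, so the number of copies and the methylation of each copy cannot be told apart in any value below.

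RefSeq promoter sequences describe the DNA at or next to a few of these windows. A member window touched 11 of the 31365 RefSeq promoter sequences of GRCm38.p6, the assembly of mm10. Of these 11, 6 are printed: 1 of 4 identical copies on chromosome 6 (Gm40364) and a near copy of it (Gm52861), a promoter with a repeated unit (Gm36734), the one with the most CpGs (Vmn2r29), and those of Duxf3 and Sp140, whose loci are described below. Each run is the 250 bases before the start of the gene, 5′ to 3′, with each CpG in capitals. Member windows cover only part of each promoter of 300 bases, from 14 bases in Gm52861 to 148 in Sp140. In Vmn2r29 they cover bases 240 to 300, so nearly all of its printed run lies outside a member.
Gm40364, chr6:47679657-47679906, strand +: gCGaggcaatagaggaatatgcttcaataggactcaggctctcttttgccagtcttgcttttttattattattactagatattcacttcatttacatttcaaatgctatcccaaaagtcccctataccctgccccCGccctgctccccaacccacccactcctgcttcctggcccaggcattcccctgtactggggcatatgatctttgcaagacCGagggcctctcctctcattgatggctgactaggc
Gm52861, chr6:47738587-47738836, strand +: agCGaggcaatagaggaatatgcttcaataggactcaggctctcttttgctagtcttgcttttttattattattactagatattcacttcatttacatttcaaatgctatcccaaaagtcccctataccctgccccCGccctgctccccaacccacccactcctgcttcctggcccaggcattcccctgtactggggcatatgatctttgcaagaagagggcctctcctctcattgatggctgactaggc
Duxf3, chr10:58233090-58233339, strand -: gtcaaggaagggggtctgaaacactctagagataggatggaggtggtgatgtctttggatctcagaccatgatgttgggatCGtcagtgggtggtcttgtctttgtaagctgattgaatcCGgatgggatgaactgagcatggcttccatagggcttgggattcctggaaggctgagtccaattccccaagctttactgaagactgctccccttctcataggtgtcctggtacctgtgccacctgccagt
Sp140, chr1:85600453-85600702, strand +: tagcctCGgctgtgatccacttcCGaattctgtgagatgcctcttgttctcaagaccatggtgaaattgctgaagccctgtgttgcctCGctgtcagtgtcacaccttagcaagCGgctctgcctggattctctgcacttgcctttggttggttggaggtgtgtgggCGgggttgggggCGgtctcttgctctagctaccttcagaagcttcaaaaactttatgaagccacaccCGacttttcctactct
Gm36734, chr13:71020422-71020671, strand -: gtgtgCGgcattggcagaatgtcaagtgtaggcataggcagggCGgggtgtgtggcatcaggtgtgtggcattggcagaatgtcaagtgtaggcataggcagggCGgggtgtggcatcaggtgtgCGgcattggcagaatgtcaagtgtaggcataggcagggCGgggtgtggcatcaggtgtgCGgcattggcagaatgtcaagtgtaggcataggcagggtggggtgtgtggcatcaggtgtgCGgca
Vmn2r29, chr7:7278290-7278539, strand -: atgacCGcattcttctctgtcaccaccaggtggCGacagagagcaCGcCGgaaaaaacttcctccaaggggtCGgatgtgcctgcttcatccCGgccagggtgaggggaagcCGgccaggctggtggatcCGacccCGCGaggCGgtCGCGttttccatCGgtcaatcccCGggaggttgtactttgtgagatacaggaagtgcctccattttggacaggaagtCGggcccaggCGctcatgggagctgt
The promoters of Gm40369, Gm40367 and Gm36327 equal that of Gm40364 in 300 of 300 bases, 250 before the gene start and 50 after it. All 4 lie in 1 tandem locus of chromosome 6. The promoter of Gm52861, in the next locus along the chromosome, equals that of Gm40364 at 234 positions when 1 of them is moved by 1 base. The Gm36734 promoter equals itself in 71.7% of 180 bases when moved by 120 bases, so a repeated unit is visible within it. The 11 promoters had a median of 3 CpGs in 300 bases against 7 over all promoters. The 4 identical copies have 3 CpGs each and Gm52861 has 2, so this median rests largely on 1 repeated sequence. Vmn2r29, a vomeronasal receptor gene, had the most with 23, Gm36734 had 8 and Sp140 had 7.

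The captured reads at these copies were alike. In the member window that touches each promoter, Gm40369 had 145 wildtype and 304 knockout counts, Gm40367 had 180 and 359, and Gm36327 had 211 and 359. Gm40364 had 2 windows with 142 to 174 wildtype and 263 to 331 knockout counts. The log2 ratios of knockout over wildtype, scaled by library reads, ran from 0.60 to 0.90 over these 4 identical sequences. The intervals of all 4 overlap, but most are of a single window and so too wide. Reads cannot be assigned with certainty among identical copies, so the 4 are not independent. The Duxf3 promoter window had 182 wildtype and 286 knockout counts (log2 ratio 0.48, interval -0.075 to 1.04, too wide for a single window). Vmn2r29 went the other way, with 277 wildtype and 203 knockout counts (-0.62, interval -1.16 to -0.061). The CGCG tetramer, read once for both strands, stood in 2 of the 11 promoters, Sp110 and Vmn2r29, against 38.5% of all promoters and 17.6% of the 7105 promoters touched by a listed window. The sequence TCCTGCNA on either strand stood in 0 of the 11, against 4.98% of all promoters. Both are sequences that Kaiso is known to bind, the first when methylated, and a match is only a description of the letters.

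Together the 2461 windows covered 246.1 kb, 0.1% of the listed autosomal windows, and held 0.535% of the wildtype and 0.585% of the knockout counts of those windows. The wildtype counts ran from 24 to 695 with a median of 198, and the knockout counts from 107 to 795 with a median of 304. As RPKM the medians were 22.6 in wildtype and 30.8 in the knockout library, against 4.45 and 4.16 over all autosomal listed windows. Summed over the members, 561739 wildtype and 833100 knockout counts gave a log2 ratio of 0.40 (0.39 to 0.41). The next band, the 22116 windows in the top 1% but not in the top 0.1%, had 0.52 (0.52 to 0.53), above the members. All these ratios hang on the scaling by library reads. Setting the median of CpG-rich windows to 0 lowers every log2 ratio by the same amount (a shift of -0.66), and then each ratio given below between 0 and 0.66 changes its direction, those of the zinc finger family, Sp110, Sp140, Tcra, Eppk1 and the Rn18s-rs5 locus among them, while the totals of the 2 chromosome 6 loci, the Duxf3 locus, Cnbd2 and Zfp981 do not.

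Of the 2461 windows 2321 were higher in the knockout library and 140 (5.69%) lower, where 43.9% of all autosomal listed windows and 0.977% of the next band were lower. At least 2-fold higher were 177 (7.19%), against 17.1% of all and 2.8% of the next band. At least 2-fold lower were 13 (0.528%), against 38.3% of all and 0.199% of the next band. The table lists only windows with a deposited p below 0.05, and a window of many counts is listed at a smaller ratio than one of few. The smallest absolute log2 fold change of a member in the authors' deposited table was 0.17. Shares of all windows and of members are therefore not on equal terms, and the next band, which has counts nearer to those of the members, is the closer comparison. Membership rested on both libraries for most windows, but not for the ones of large ratio. Of the 2449 windows in the top 0.1% by wildtype RPKM alone 84.2% were members, and of the 2449 by knockout RPKM alone 87.4%. Those 2 lists shared 1761 windows, which were 71.6% of the members. Another 379 members were in the knockout list only, 302 in the wildtype list only and 19 in neither. Of the 177 windows at least 2-fold higher 166 were in the knockout list only, and of the 140 lower windows 88 were in the wildtype list only. The choice by the sum therefore fixes part of these ratios, and they are given as a description.

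**Figure D1:**
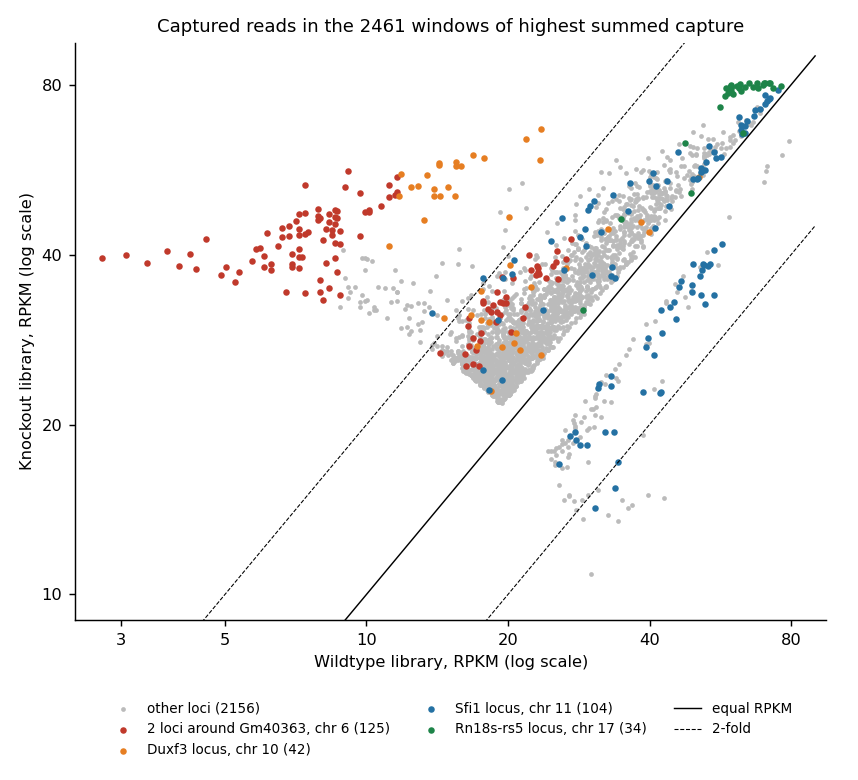
Wildtype RPKM (horizontal, log scale) against knockout RPKM (vertical, log scale) of the 2461 windows, 1 point per window, with lines at equal RPKM and at 2-fold either way. The bulk lies just above the equal line, the chromosome 6 and Duxf3 windows reach past 2-fold, 42 windows of the Sfi1 locus lie below the line, and the Rn18s-rs5 windows line up near 80 RPKM of the knockout library. In the empty strip along the equal line the table lists no such window.

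The members were clustered. They formed 737 blocks of touching windows, of which 193 were single windows and 28 had 10 or more, with a median of 3 windows. Joined across gaps of up to 50 kb they fell into 280 loci. The 28 loci with 20 or more windows held 1496 members (60.8%). Neighbouring windows are read from the same fragments, so a block or locus, not a window, is the unit in what follows.

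Chromosomes differed in their part. Chromosome 4 had 368 members (2.3 per 1000 listed windows), chromosome 1 had 307, chromosome 8 had 277 and chromosome 17 had 200. At the other end chromosome 2 had 30 and chromosome 19 had 5 (0.072 per 1000). The first 4 Mb of a chromosome, next to the centromere in the mouse, held 202 members (8.21%), against 1.56% of the next band and 0.713% of all autosomal listed windows. Of these 202, 104 belong to the Sfi1 locus of chromosome 11 and 28 to a locus at the start of chromosome 9. That locus, from 3005301 to 3036800, lay over no annotated gene and had 13945 wildtype and 16959 knockout counts (log2 ratio 0.11, 0.049 to 0.18). Members recurred at a distance inside several loci. For each locus the distance from 1 to 10 kb with the most pairs of members was taken, so it is a maximum and is given beside the median over all these distances. In the locus of chromosome 6 from 47653601 to 47684000, 28 of 49 windows had another member 4.3 kb downstream (median 4), and in that from 47737301 to 47766300, 30 of 76 did, also at 4.3 kb (median 14). The 2 loci of chromosome 8 near 55 Mb shared a spacing of 3.3 kb, with 21 of 35 (median 2) and 44 of 77 windows (median 10).

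**Figure D2:**
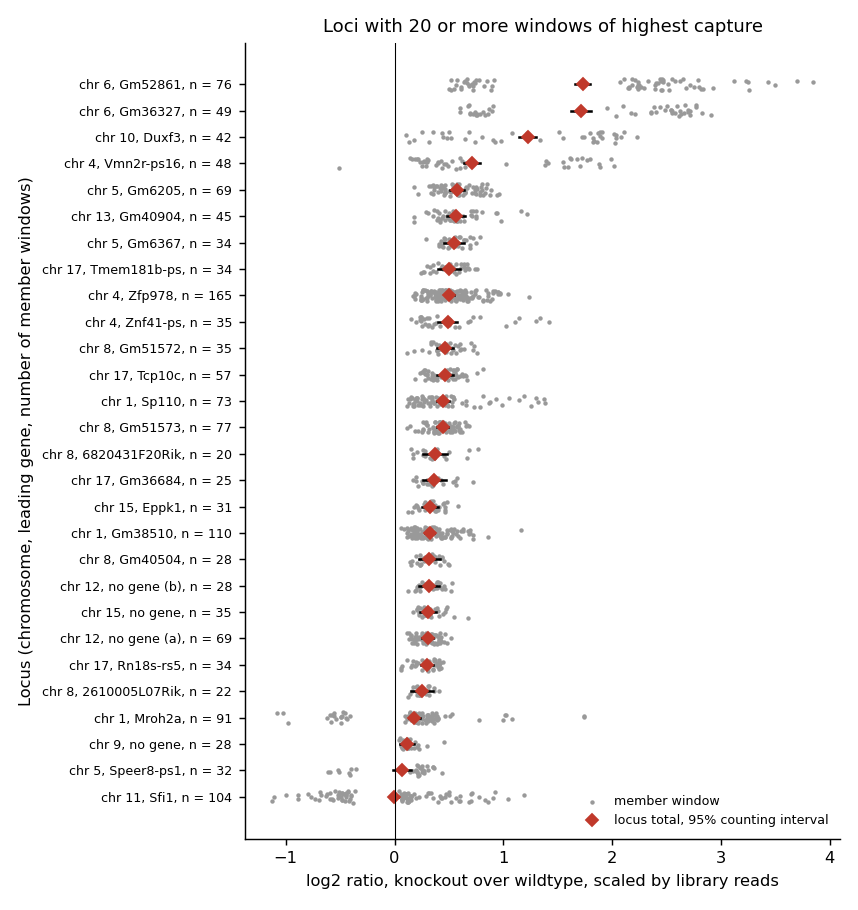
The 28 loci with 20 or more members, ordered by ratio. Grey points are windows, red diamonds the log2 ratio of knockout over wildtype for the locus total with its 95% counting interval as a bar, and labels give the chromosome, the leading gene and the number of windows. The 3 highest loci lie at 1.73, 1.71 and 1.22, and the lowest, over Sfi1, at -0.0033.

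The highest window of the table's autosomes lay on chromosome 17, at 39846001 to 39846100, with 669 wildtype and 784 knockout counts and 14 CpGs. Its locus is named here after Rn18s-rs5. It belongs to a block of 31 windows from 39843001 to 39846100, next to Rn18s-rs5, annotated as a pseudogene and named for 18S ribosomal RNA (39846354 to 39848202). No member lay over Rn18s-rs5 itself, and 3 lay just past it, over AY036118. Ribosomal RNA genes are tandem arrays in the genome, and a part of them is methylated in mammalian cells. The block held 16974 wildtype and 23683 knockout counts, with 11 CpGs per window, and a log2 ratio of 0.31 (0.26 to 0.37). The whole locus had a mean of 61.1 wildtype and 75.1 knockout RPKM per window, above every other locus with 20 or more windows.

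Part of that block reached a common upper level in the knockout library. In 18 of its windows the knockout counts lay between 780 and 795, and no other autosomal window reached 780. The wildtype counts of the same 18 windows ran from 520 to 669. The largest wildtype count of any window, 695, lay elsewhere, at the start of chromosome 10. Along the whole membership the ratio shrank as the sum grew. Split by sum into 5 groups of 492 or 493 windows, the lowest group had a median log2 ratio of 0.44 (quartiles 0.28 and 0.62), the middle one 0.41 and the highest one 0.26 (0.15 and 0.40). The sources used here do not say how duplicate reads were handled. The table also lists a window of many counts at a smaller ratio than one of few. Whether this listing or an upper limit on the counts has a part in the smaller ratios at the highest sums was not tested.

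Among the loci with 20 or more windows, a pair on chromosome 6 stood farthest from equality. The first holds Rn4.5s (47654921 to 47655094), a gene that the annotation lists under the class rRNA. It also holds the predicted genes Gm40369, Gm40367, Gm40365, Gm36327, Gm40364 and Gm40363. This locus had 5012 wildtype and 18443 knockout counts in 49 windows (log2 ratio 1.71, 1.62 to 1.80). The second, over Gm40363, Gm52861 and Gm52862, had 8092 and 30155 in 76 windows (1.73, 1.66 to 1.80). Both loci had the same ratio within their intervals, and each of their 125 windows was higher in the knockout library.

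Within these loci the member windows fell into separate sets. A set of 81 windows lay at least 2-fold higher, with log2 ratios from 1.95 to 3.85 and a median of 2.51. Their wildtype counts ran from 24 to 102 and their knockout counts from 328 to 555. All 81 were past the limit of the knockout list and none past that of the wildtype list, so the choice of windows fixes part of their ratio. The other 44 windows lay between 0.50 and 0.91, with wildtype counts of 126 to 239 and knockout counts of 250 to 421. No member lay between these sets, and the median CpG count was 4 in each. Listed windows below the limit of the sum did lie between them, such as 1 with 2.62 wildtype and 7.20 knockout RPKM. The gap is therefore one among members only. The printed promoter copies belong to the set with the smaller ratio. The sets differ mainly in the wildtype library, where the median was 65 counts against 169.5, while the knockout medians were 424 and 323. Listed windows of the same loci below the limit of the sum had ratios of 2.34 over 202 windows and 2.51 over 160. The same limit set them apart, and they lie among members and can share fragments with them. They are therefore not a separate check of the ratio. The listed windows within 50 kb on either side had totals of 1.87 (1.72 to 2.01), with 57 of 72 higher, and 1.35 (1.25 to 1.45), with 98 of 128 higher. Most of the stretch between the 2 loci lies in both flanks, so these totals may share windows.

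The Duxf3 locus of chromosome 10 (58220901 to 58239600) had 7146 wildtype and 18764 knockout counts in 42 windows (1.22, 1.15 to 1.30). Dux genes encode double homeobox transcription factors that act at the start of embryonic transcription and lie in a tandem array. Over Duxf3 itself (58229505 to 58233089), 14 of the 21 listed windows were members, with 1796 wildtype and 6521 knockout counts (1.69, 1.54 to 1.85), and all 21 together gave 1.63. The neighbour LOC100504180 held 17 members. The 14 members over Duxf3 had 98 to 154 wildtype counts each, under the limit of the wildtype list. The choice of windows therefore fixes part of their ratio. The 38 other listed windows inside the locus had 0.63 (0.50 to 0.77), with 32 higher, and can share fragments with members. Unlike the chromosome 6 loci, the flanks did not share the ratio: 43 listed windows within 50 kb had 0.031 (-0.16 to 0.23). The difference between these flanks was not tested.

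**Figure D3:**
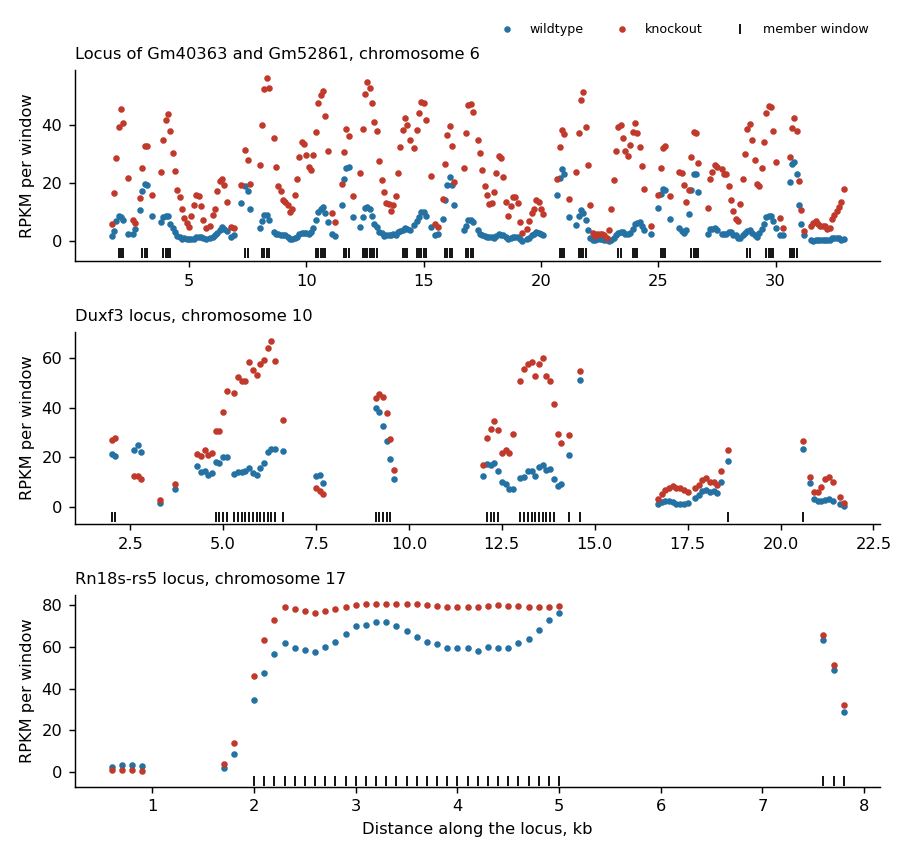
RPKM of each listed window (vertical) along 3 loci (horizontal, distance in kb, with 2 kb before and after), blue for the wildtype and red for the knockout library, and ticks below for member windows. On chromosome 6 peaks recur in both libraries, some with high and some with low wildtype values, in the Duxf3 locus the gap between the libraries opens in some stretches only, and on chromosome 17 the knockout values form a plateau near 80.

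Of the 280 loci 9 were at least 2-fold higher, with 132 of the 177 windows at that level. Besides the 3 above, 5 windows over Cnbd2 on chromosome 2, a gene of a cyclic nucleotide binding protein, had 424 wildtype and 1829 knockout counts (1.94, 1.63 to 2.26), while 215 listed windows in the flanks had 0.58. Gm40514 on chromosome 9 had 457 and 1577 (1.62). A gene-free stretch of chromosome 8 from 123430801 to 123431100 had 243 and 1107 (2.02, 1.61 to 2.44), with 0.57 over 258 flanking windows. A stretch of chromosome 13 without a gene, from 67887601 to 67892100, had 1105 and 3137 over 10 windows (1.34, 1.14 to 1.54). The last, also without a gene, were 2 pairs of windows on chromosome 8 with 224 and 598 counts (interval 0.80 to 1.72, from 123600801) and 212 and 597 (interval 0.86 to 1.80, from 43317601), and their flanks had 1.39 in total over 706 windows and 0.77 over 252. The 5S ribosomal RNA cluster of chromosome 8 held no member.

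The family with the most members was that of the zinc finger genes. By symbol, 12 of 409 annotated Zfp genes held 187 members, 7.6% of the members against 0.716% of the listed windows, with a log2 ratio of 0.52 (0.48 to 0.56). Most lie in a cluster of chromosome 4. The largest locus of all, from 147176401 to 147490700, had 33222 wildtype and 52908 knockout counts in 165 windows (0.50, 0.46 to 0.54), and all 165 were higher in the knockout library. Zfp978, whose annotated span covers much of it, held 118 members with 23408 and 37563 counts (0.51), and Zfp982 held 26 with 4390 and 6890 (0.48). Within the same chromosome region Zfp981 stood higher, with 1657 and 4969 counts in 15 members (1.42, 1.26 to 1.58) and 0.85 over all its 82 listed windows. Zfp992, in the same locus as Zfp981, had 1619 and 2233 (0.30, 0.11 to 0.48). The intervals of these last genes do not overlap.

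Sfi1, described below, held 79 members. Vomeronasal symbols had 61, but 49 of them lie over the pseudogene Vmn2r-ps16, which spans Zfp981 and Zfp992 as well and shares their windows. No member lay over an olfactory receptor, 5S ribosomal RNA, tRNA, histone, mucin, keratin-associated, ankyrin repeat, Skint or protocadherin gene, families that held from 93 listed windows (tRNA) to 3566 (protocadherin), where 0.1% of all listed windows were members. Small nuclear RNA genes had 2 members of 48 listed windows, over Rnu6, filaggrin-type genes 2 of 190, over Flg2, and Cyp2 genes 1 of 1255, over Cyp2j13. These families were picked by symbol because their genes are repeated or clustered.

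On chromosome 1 the members over Sp110 and Sp140, genes of nuclear body proteins that overlap in the annotation, had 10769 wildtype and 16730 knockout counts in 42 windows (0.47, 0.40 to 0.54) and 9957 and 15389 in 38 windows (0.46). Every member over either gene was higher in the knockout library. The T cell receptor alpha locus Tcra had 15 members with 2262 and 3997 counts (0.65, 0.50 to 0.80), of 1775 listed windows in its span.

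Other long stretches had smaller ratios. Eppk1, the gene of epiplakin, a cytoskeletal linker protein built of repeated plakin domains, held 1 block of 31 windows on chromosome 15 from 76102701 to 76105800. It had 9223 wildtype and 12993 knockout counts (0.33, 0.25 to 0.40), and the other listed windows within 50 kb had 0.38 (0.31 to 0.44), an interval that overlaps that of the block. The longest block of all, 35 windows on chromosome 15 from 91906701 to 91910200, lay over no annotated gene, with 10802 and 15030 counts (0.31, 0.24 to 0.38). A locus of chromosome 12 from 20226801 to 20234600, also without a gene, had 21995 and 30550 in 69 windows (0.31, 0.26 to 0.36). These 3 stretches and the Rn18s-rs5 locus had ratios between 0.30 and 0.33.

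Further protein-coding genes and pseudogenes held fewer members. Uxs1, the gene of UDP-xylose synthase, had 10 members with 2814 and 4049 counts (0.36). Dhx8, a helicase gene of the splicing machinery, had 8 with 2598 and 3512 (0.27). Washc2, a subunit gene of the WASH complex, had 8 with 1459 and 2326 (0.50). Peak1, the gene of a pseudokinase, had 7 with 1227 and 1868 (0.44). Tcp10c, a gene of the t-complex, had 9 with 1528 and 2261 (0.40). The members over all 5 of these genes were higher in the knockout library. So were the 20 over the pseudogene Tmem181b-ps, with 3082 and 5193 counts (0.58, 0.46 to 0.72), and the 10 over Znf41-ps, with 2818 and 3942 (0.32). The Speer family is expressed in spermatids. Members over its pseudogenes stood nearer to equality, with 1797 and 1886 counts over Speer4cos (-0.098, -0.29 to 0.094) and 1588 and 2097 over Speer8-ps1 (0.23, 0.041 to 0.42). All listed windows of these pseudogenes were lower in the knockout library in total. They gave -0.42 (-0.58 to -0.27) over 30 windows of Speer4cos and -0.29 (-0.43 to -0.16) over 37 of Speer8-ps1. In all, 204 genes of 47042 annotated on the autosomes held a member, 126 of them protein-coding and 86 with predicted, LOC or Riken symbols. Gene spans covered 1301 members (52.9%), close to the 51.0% of the next band, and 58.9% of all listed windows. Of the 737 blocks 54.3% (50.6 to 57.9%) touched a gene span.

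Lower windows were few and gathered in few places. Of the 140 members lower in the knockout library, 42 lay in the Sfi1 locus of chromosome 11, from 3100201 to 3197200. Sfi1 encodes a centrosomal protein that binds centrin, and its locus lies near the centromere end. The 62 higher windows of that locus had 121 to 659 wildtype and 227 to 771 knockout counts (median log2 ratio 0.18). The 42 lower ones had 225 to 501 wildtype and 140 to 412 knockout counts (median -0.51). The wildtype medians of both sets were alike, 372.5 and 371.5 counts, and the knockout medians were 533 and 283.5. The lower windows had a median of 1 CpG and the higher ones of 2. Over the whole locus, 39150 and 43887 counts gave -0.0033 (-0.043 to 0.036), so its total hides windows of both directions. No member of it lay between -0.36 and 0.042, and the authors' deposited table lists no autosomal window with an absolute log2 fold change under 0.17 on the authors' own scale. Pisd-ps1, a pseudogene beside Sfi1 in the locus, had 2100 and 1834 counts in 7 members (-0.36, -0.55 to -0.18), of which 1 was higher.

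Hjurp, the gene of the chaperone that loads the centromeric histone, showed both directions as well. Of its 38 members on chromosome 1, 22 were higher, and together they had 10654 wildtype and 11639 knockout counts (-0.041, -0.12 to 0.036). A block of 3 windows in it, from 88263001 to 88263300, had 786 and 433 (-1.03, -1.38 to -0.68). The overlapping gene Mroh2a had 11001 and 14122 counts in 46 members (0.19, 0.12 to 0.26), 35 of them higher.

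Of the 280 loci 69 were single windows, whose intervals are too wide, so the counts that follow may be too low. Only 12 of the 280 loci had an interval wholly below 0, against 146 wholly above. The largest, on chromosome 13 from 119489101 to 119495100 within Tmem267, had 4525 wildtype and 3369 knockout counts in 15 windows (-0.59, -0.72 to -0.46), all lower. Other members within the long span of Tmem267 were higher, 11 of its 28. The 18 other listed windows inside the locus were all lower, with -1.09 (-1.30 to -0.87) in total. The flanks of the locus did not share this, with 0.48 (0.34 to 0.63) over 65 windows. The lowest, 4 windows within Efl1 on chromosome 7, a gene of ribosome maturation, had 1269 and 540 counts (-1.40, -1.70 to -1.10), and its 175 flanking windows had 0.31. The block of chromosome 13 from 66061801 to 66062100 had 965 and 421 (-1.36, -1.71 to -1.03), and there the 140 flanking windows had a total of -1.97, with 4 of them higher. Snhg14, the imprinted host transcript of small nucleolar RNAs, had 4 members with 1042 and 861 counts (-0.44, -0.71 to -0.18). The 47 other listed windows in the 35.5 kb stretch of these members gave -0.85 (-1.01 to -0.69), with 1 higher. All 717 listed windows of the much longer Snhg14 span went the other way in total (0.33, 0.28 to 0.37). At the start of chromosome 10, 6 windows had 3742 and 3330 counts (-0.34, -0.47 to -0.20) and a mean of 71.1 wildtype RPKM.

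The members had a median of 3 CpGs (range 1 to 19), against 4 in the next band and 2 over all autosomal listed windows. Windows with 1 CpG made up 16.1% of the members, 7.85% of the next band and 37.6% of all. Those with 5 or more made up 25.1%, 43.6% and 8.84%. Among members the median log2 ratio moved little between CpG classes, from 0.30 with 1 CpG through 0.37 with 3 to 0.44 with 6. Over all autosomal listed windows it went from -1.22 with 1 CpG to 0.66 with 6 and 2.03 with 11 or more. The next band, with 0.48 at 1 CpG and 0.51 at 6, moved as little, so a flat course is not particular to the members. Windows with 11 or more CpGs were 1.71% of the members, above the 0.836% of the next band and the 0.196% of all. The median ratio of these 42 members was 0.32 (log2). The Rn18s-rs5 locus held 19 of them. The other 23 had 0.39.

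**Figure D4:**
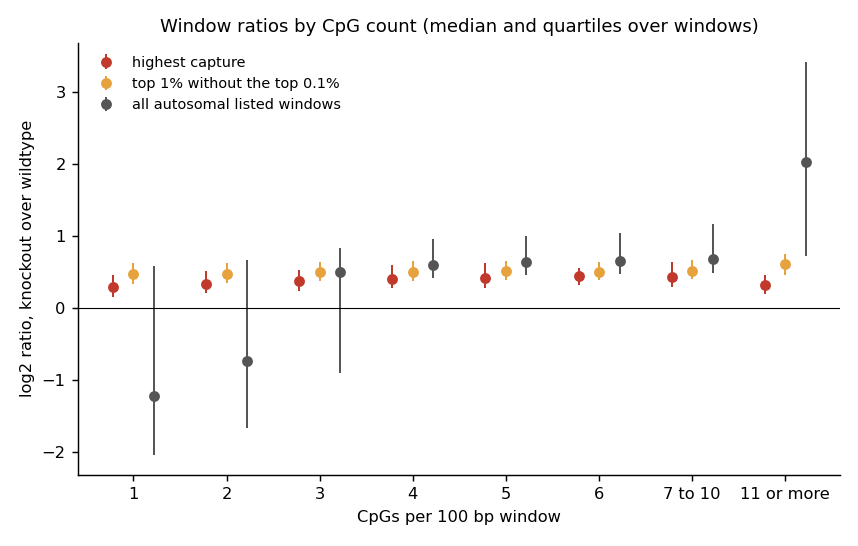
Median log2 ratio of knockout over wildtype (vertical) by CpGs per window (horizontal), with bars from the lower to the upper quartile over windows, for the members (red), the next band, the top 1% without the top 0.1% (orange) and all autosomal listed windows (grey). The red and orange medians stay between 0.30 and 0.61, while the grey ones run from -1.22 to 2.03.

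The relative methylation score of the authors, whose scale is not stated, is computed from the same counts with the CpG content taken into account. Its median over the members was 0.592 in wildtype and 0.629 in the knockout library. The next band had 0.230 and 0.224, and all autosomal listed windows had 0.190 and 0.154. The score was highest in members with few CpGs, with medians of 3.06 and 4.59 at 1 CpG and 0.374 and 0.340 at 5.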

How the data were processed

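Both libraries came in 1 table of 100 bp windows deposited by the authors. Bowtie2 2.2.6, edgeR and the mm10 build are named in the submitters' processing notes, and the table's columns carry MEDIPS names, per the file headers. Each deposited count gives whole reads per window and library. The deposited RPKM scales this count by window length and library reads, which gave the library sizes. The score of the authors and their log2 fold change (wildtype over knockout) were used as deposited. Every listed window has a deposited p-value under 0.05, and the adjusted column repeats it, so the table is a selection, and an absent window is not shown to be unchanged. Read extension, duplicate removal and multiple alignments are not given in the sources used here. Another 10 columns of values per sample were not used.

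Window sums were divided by 4 to approximate fragments, since a read counts in several windows. Single windows were divided as well, although each read counts there once, so their intervals are too wide. Intervals are 95% conditional binomial (Clopper-Pearson) intervals (scipy 1.17.1). The interval computation was tested on simulated data with known ratios. Those data were made with the same divisor, so this does not check the divisor. Ratios were scaled by library reads. Alternatives were the autosomal counts, the authors' scaling, TMM (edgeR 4.0.16), CpG-rich windows centred on 0, other percentiles, joins, folds and divisors. Blocks were named by a rule: the 12 with the most windows, the 8 with the highest window, and the 5 highest and 5 lowest by interval bound among blocks of 3 or more windows. Genes named were those with the most members, up to 25, without predicted symbols unless a block held no other. Loci joined across 50 kb, the loci and genes named from them, and the sets within them were chosen after seeing the data. The members and lists were chosen with earlier results of these data known. Gene spans and promoters came from RefSeq GRCm38.p6. The CpG count of the table equalled that of the RefSeq sequence in 97.1% of 8340 windows inside a promoter. A genome sequence was not used here.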

Additional observations from a re-analysis of the deposited data

Results flagged for a closer look

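The X and Y chromosomes lie outside the rule, and windows above the autosomal limit were found there too. On X 149 of 58853 listed windows (0.253%) and on Y 234 of 17720 (1.32%) had a sum above it, while none of the 30 mitochondrial ones did. These windows were mostly lower in the knockout library, unlike the autosomal members. On X they held 52689 wildtype and 31284 knockout counts (log2 ratio -0.92, -0.96 to -0.88), and 22 of the 149 were higher. On Y they held 84735 and 56571 (-0.75, -0.78 to -0.72), and 49 of the 234 were higher. The median RPKM was 39.7 wildtype and 22.5 knockout on X, and 40.8 and 24.0 on Y. The ratio and the share of higher windows over all listed windows of X and of Y are not given here. These values are therefore not shown to be particular to windows of high capture. The difference from the autosomes was not tested.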

How the results depend on the processing

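The ratio of the members depends on the scaling. The total of 0.40 (log2) was 0.53 with the authors' scaling, 0.24 with TMM, 0.13 with autosomal counts and -0.26, with its direction turned, when CpG-rich windows (5 CpGs or more) were centred on 0. The median of blocks, 0.34, was 0.47, 0.18, 0.066 and -0.32 under the same settings. The total was 0.48 for the top 0.5% and 0.34 for the top 0.05%, 0.31 with the smaller RPKM of the 2, 0.34 as the median of blocks, and 0.32 without the 9 loci at least 2-fold higher, an alternative chosen after seeing the data. The 177 windows at least 2-fold higher stayed between 120 and 217 under each scaling. They numbered 562 and 66 in the top 0.5% and 0.05%, 533 at 1.5-fold, 45 as blocks, and 45 without those 9 loci. The 13 at least 2-fold lower were 8 with the authors' scaling, 22 with TMM, 29 with autosomal counts, 137 with CpG-rich windows centred on 0, 46 and 3 at these limits, 48 at 1.5-fold and 3 as blocks. The 737 blocks became 366 joined within 10 kb, 280 within 50 kb, and 4887 and 364 at these limits. The median CpG count was 4 in the top 0.5%, the share in protein-coding spans 38.0%, and the median score 0.278 and 0.757 (wildtype) and 0.297 and 0.762 (knockout) at the 2 limits. With a divisor of 3, blocks wholly above 0 went from 374 to 430 and those wholly below from 47 to 56. The 193 blocks of a single window would need no divisor, so these counts may be too low. No paired analysis was possible because each group has 1 library, and leaving out a library was not possible for the same reason.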
